A study of Mus musculus with 3 samples.

Results

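Integrin genes were described in 3 single-cell libraries of the embryonic mouse thymus. Members were all rows of the gene table whose symbol starts with Itga or Itgb, which gave 32 rows and 31 symbols among 27998 genes, because *Itgam* has a second entry on an overlapping stretch of chromosome 7. Integrins are receptors made of 1 alpha and 1 beta subunit that bind the extracellular matrix or molecules on neighboring cells and link them, through adaptors such as talin and kindlin, to the actin skeleton. The pairing of subunits sets the ligand: laminin, collagen, fibronectin and other proteins with the RGD motif, or cell surface molecules such as VCAM1, MAdCAM-1, the ICAMs and E-cadherin. In the fetal thymus, they are known for holding epithelium to its basement membrane and for the entry and positioning of hematopoietic cells. The symbol rule also takes in genes that are not receptor subunits: *Itgb3bp*, *Itgb1bp1*, *Itgb1bp2* and *Itgbl1*.

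The study compared thymic lobes of C57BL/6 embryos at gestational day 13 to 13.5, with 1 droplet library from wild type embryos (the control), 1 from embryos homozygous for Tbx1neo2, an allele that carries a neomycin cassette and is used as a model of 22q11.2 deletion syndrome, and 1 from embryos homozygous for Foxn11089, which carries a short deletion in *Foxn1*, the master transcription factor of thymic epithelium. Both are alleles of the whole embryo, not limited to a cell type. Neither the embryos pooled per library nor their sex could be read from the sources used here. With 1 library per genotype, genotype and library cannot be told apart, no test between genotypes was possible, and each 95% interval below covers counting error only.

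*Tbx1* had 1.39 CPM (UMIs of the gene per 1000000 UMIs) in all kept cells of the control, 4.81 in the library labelled Tbx1neo2/neo2 and 5.43 in the Foxn11089/1089 library, so this gene was not lower in the library that bears its allele, and the label is quoted as such throughout. By the gates described below and in the same order, *Tbx1* had 0.854, 5.33 and 7.58 CPM in Epcam-positive and 5.33, 5.52 and 3.47 in Pdgfra-positive cells. It had 23.0, 24.4 and 22.2 CPM in Cdh5-positive and 0, 1.09 and 0 in Ptprc-positive cells. The library labelled Tbx1neo2/neo2 was thus near the control in mesenchyme and endothelium and above it in Epcam- and Ptprc-positive cells. Parathyroid markers (*Pth*, *Gcm2* and *Chga*), genes of the gland that shares its embryonic pouch with the thymus, set the library labelled Tbx1neo2/neo2 apart, with 948, 0.399 and 8013 CPM in the epithelial cells described below. The short deletion in *Foxn1* cannot be checked in such 3′ counts. The libraries held 82936619, 137498422 and 204655055 UMIs (unique molecular identifiers, each marking 1 captured RNA molecule) in 6410, 5759 and 12447 barcodes, and pairs of libraries shared 17, 18 and 28 barcodes. Of 5932, 5516 and 11772 kept cells, a cell was called positive for *Epcam* (epithelium), *Pdgfra* (mesenchyme), *Cdh5* (endothelium) or *Ptprc* (hematopoietic cells) when it had at least 2 UMIs of that gene and at least 80% of its UMIs of the 4 genes on it. In the control, the library labelled Tbx1neo2/neo2 and the Foxn11089/1089 library, in this order here and in every series of 3 values below, this gave 1985, 809 and 4082 Epcam-positive, 663, 1339 and 2265 Pdgfra-positive, 51, 94 and 108 Cdh5-positive and 578, 299 and 319 Ptprc-positive cells. The other 44.8%, 53.9% and 42.5% of the kept cells were in no gate. The median share of mitochondrial UMIs was 2.59%, 5.80% and 5.03%, and its part in any difference between libraries was not tested. All markers listed for the 4 classes (7, 7, 7 and 6 genes) were highest in their own gate in each library, so the gates held what their names say, while each also held other cell types, given below beside the results they touch.

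UMIs of a gene were summed over the cells of a gate and divided by all UMIs of the gate to give its CPM there. A member was called led by a gate when its CPM was at least 2-fold that of each of the other 3 gates in all 3 libraries. Of 31 members with at least 30 UMIs over gates and libraries, 9 were led by Ptprc-positive cells (5.3% of the 17079 genes tested), 5 by Cdh5-positive cells (2.85% of all genes), 4 by Pdgfra-positive cells (5.49%), 2 by Epcam-positive cells (5.59%) and 11 by none. The Ptprc-led members were *Itga4*, *Itgb7*, *Itgae*, *Itgal*, *Itgam*, *Itgax*, *Itgad*, *Itgb2* and *Itgb2l*, the subunits of the leukocyte integrins and of the alpha4 beta7 homing receptor. The Cdh5-led members were all alpha subunits: *Itga6*, *Itga5*, *Itga9*, *Itga1* and *Itga2*. Of these, *Itga5* led by 2.01-fold in the control and lost its lead with a gate of 3 UMIs, a mitochondrial limit of 10%, CPM without mitochondrial, hemoglobin and ribosomal protein genes, or gates set after thinning to 2000 UMIs. *Itga9* lost its lead with the last of these, and *Itga1* with a gate of 1 UMI. The Pdgfra-led members were *Itga8*, *Itga11*, *Itgb5* and *Itgb8*, and the Epcam-led members were *Itga3* and *Itgbl1*. *Itga7*, a laminin receptor of muscle, had 26 UMIs and was not tested.

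**Figure D1:**
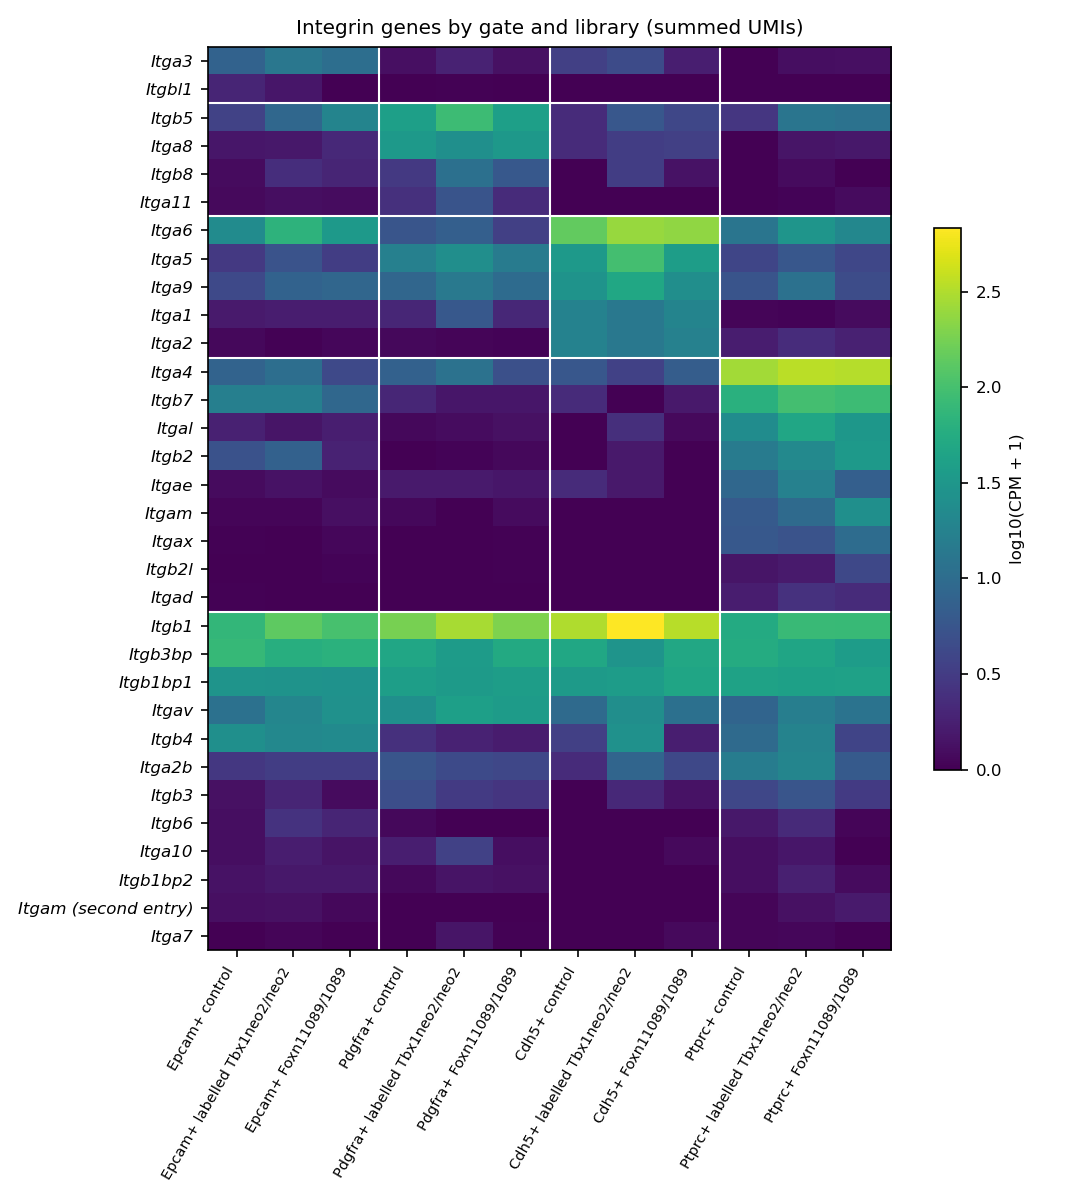
Levels of the 32 integrin rows (vertical axis) in each gate and library (horizontal axis) as log10(CPM + 1), grouped by the gate that led them, from Epcam at the top to none at the bottom. The 9 Ptprc-led genes are brightest in the 3 right-hand columns, and *Itgb1* is bright in every column.

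The members led by Ptprc-positive cells share their pattern over the gates, and the 250 bases before the start of 3 of them are shown for that reason, from RefSeq on GRCm38.p6, read 5′ to 3′ on the gene's strand. *Itga4* (chr2:79255176-79255425, plus strand) and *Itgb7* (chr15:102231936-102232185, minus strand) encode partners of 1 receptor, and *Itgam* (chr7:128062390-128062639, plus strand) encodes a myeloid subunit. Capitals mark 2 short motifs searched on both strands, the core GAGGAA of Ets factors such as PU.1 and the core TGTGGT of RUNX factors, which do not overlap each other.
Itga4: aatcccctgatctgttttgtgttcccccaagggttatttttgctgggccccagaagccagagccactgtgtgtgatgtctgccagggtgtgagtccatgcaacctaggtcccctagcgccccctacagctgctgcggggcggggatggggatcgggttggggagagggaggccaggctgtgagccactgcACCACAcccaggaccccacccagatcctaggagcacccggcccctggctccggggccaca
Itgb7: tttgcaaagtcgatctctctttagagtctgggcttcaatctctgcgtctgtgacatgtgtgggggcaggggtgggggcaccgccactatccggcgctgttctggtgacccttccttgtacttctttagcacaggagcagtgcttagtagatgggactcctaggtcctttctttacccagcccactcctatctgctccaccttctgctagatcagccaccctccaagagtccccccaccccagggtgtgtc
Itgam: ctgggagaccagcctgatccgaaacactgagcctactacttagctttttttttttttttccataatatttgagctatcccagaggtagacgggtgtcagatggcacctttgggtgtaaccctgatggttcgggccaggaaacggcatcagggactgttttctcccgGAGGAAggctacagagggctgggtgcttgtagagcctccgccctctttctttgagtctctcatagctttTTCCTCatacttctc
The Ets core stood in 2 of the 5 Ptprc-led members that had an entry, *Itgam* and *Itgb2l*, and in 23.3% of all 32851 promoters of the same length. The RUNX core stood in 1 of the 5, *Itga4*, and in 14.0% of all promoters. A match is a description of the letters only. Of the other Ptprc-led members, *Itgax* had an entry with neither core, and *Itgal*, *Itgb2*, *Itgae* and *Itgad* had no entry.

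Each library was compared with the control within a gate, for genes with at least 30 UMIs over both libraries. The median log2 ratio of all tested genes was above 0 in every comparison, between 0.17 and 0.44, and was subtracted from each ratio (centring), so that a member is called higher or lower when it passed 1.5-fold relative to the bulk of the genes. Both comparisons use the same control library. In Epcam-positive cells, 8 of 23 members were higher and 4 lower in the library labelled Tbx1neo2/neo2 (median of all genes 0.40; 17.7% and 21.8% of all genes called), and 7 of 24 were higher and 6 lower in the Foxn11089/1089 library (median 0.30; 22.6% and 22.7%). In Pdgfra-positive cells, 6 of 18 were higher and 5 lower in the library labelled Tbx1neo2/neo2 (median 0.37; 18.8% and 20.4%), and 1 of 16 was higher and 5 lower in the Foxn11089/1089 library (median 0.17; 12.5% and 15.3%). In Cdh5-positive cells, 4 of 10 were higher and 3 lower in the library labelled Tbx1neo2/neo2 (median 0.44; 25.5% and 24%), and 0 of 10 were higher or lower in the Foxn11089/1089 library (median 0.29; 20% and 19.6%). In Ptprc-positive cells, 8 of 20 were higher and 1 lower in the library labelled Tbx1neo2/neo2 (median 0.36; 15.3% and 18.8%), and 5 of 19 were higher and 5 lower in the Foxn11089/1089 library (median 0.23; 16.6% and 18.1%). Members thus passed the fold in both directions, except in the endothelium of the Foxn11089/1089 library. The 0 there did not hold under each alternative given in the closing section. The 8 comparisons share 1 control library, and an excess over the shares of all genes was not tested. Without centring, higher and lower members were counted in Epcam-, Pdgfra-, Cdh5- and Ptprc-positive cells, in this order. They numbered 12 and 2, 10 and 2, 6 and 1, and 14 and 0 in the library labelled Tbx1neo2/neo2. In the Foxn11089/1089 library they numbered 8 and 5, 1 and 5, 1 and 0, and 8 and 3. The shares of all genes without centring were not computed. With all-gene medians above 0, these counts are not read as a result about the members. The members' own median centred log2 ratio lay between -0.20, in the mesenchyme of the Foxn11089/1089 library, and 0.34, in the endothelium and the Ptprc-positive cells of the library labelled Tbx1neo2/neo2. In a gate summed over cells, fewer cells of a type and less RNA per cell cannot be told apart.

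**Figure D2:**
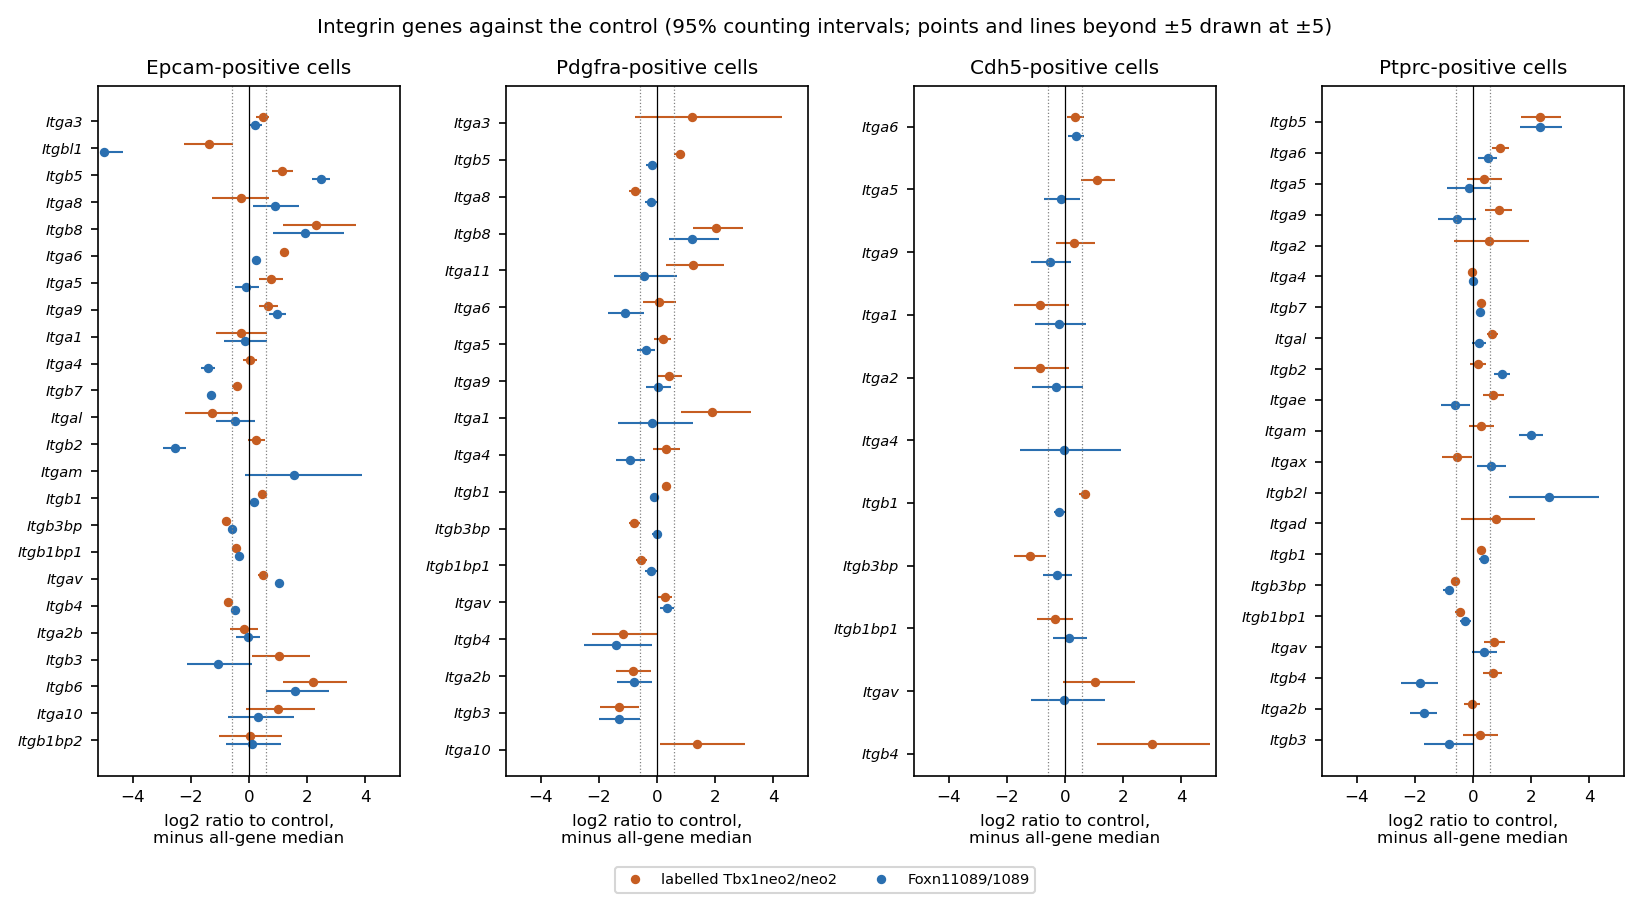
Centred log2 ratio to the control (horizontal axis) of each tested integrin gene (vertical axis) in the 4 gates, with the library labelled Tbx1neo2/neo2 in orange and the Foxn11089/1089 library in blue; lines are 95% counting intervals, dotted lines mark 1.5-fold, and values beyond 5 are drawn at 5. *Itgb8* sits right of the dotted line in Epcam- and Pdgfra-positive cells in both colors, and every blue point in Cdh5-positive cells lies between the dotted lines.

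Among the laminin receptors, *Itga6* (ENSMUSG00000027111, GRCm38 chromosome 2, 71745616 to 71858416), whose product pairs with beta1 or, in hemidesmosomes, with beta4, was highest in endothelium. It had 143, 249 and 228 CPM in Cdh5-positive cells, 22.1, 67.8 and 32.1 in Epcam-positive cells, 11.7, 28.7 and 19.5 in Ptprc-positive cells and 4.59, 6.25 and 2.42 in Pdgfra-positive cells. The endothelial gate therefore led in each library, and its differences from the control did not pass the fold (centred log2 ratios 0.36 and 0.38). *Itga6* was higher in Epcam-positive cells of the library labelled Tbx1neo2/neo2, and the centred log2 ratio was 1.22 (1.10 to 1.34). In that library, 109 Epcam-positive cells (13.5%) carried at least 500 CPM of thyroid markers (*Foxe1*, *Nkx2-1*, *Pax8* and *Tg*), against 4 in the control and 6 in the Foxn11089/1089 library, and held 1191 of the 2887 *Itga6* UMIs, at 176 CPM. Without the cells with at least 500 CPM of thyroid or parathyroid markers, the centred ratio was 0.73, still past the fold. A further 588, 155 and 55 Epcam-positive cells (29.6%, 19.2% and 1.35%) carried at least 500 CPM of a macrophage and dendritic list. *Cd74* and *H2-Aa*, genes of antigen presentation that thymic epithelium also expresses, made up 98.8%, 96.9% and 39.8% of that list's UMIs in the gate. This set is called the antigen presentation set here. It is not taken as another cell type in the control and the library labelled Tbx1neo2/neo2. The other 6 genes of the list had 7.81, 9.05 and 32.9 CPM. In Ptprc-positive cells of the Foxn11089/1089 library, *Cd74* and *H2-Aa* made up 41.7%. Whether the set in Epcam-positive cells of that library holds another cell type was not tested. Outside all 3 sets, *Itga6* had 24.1, 49.7 and 24.3 CPM, with a ratio of 0.63. In Ptprc-positive cells of the library labelled Tbx1neo2/neo2, the ratio was 0.94 (0.66 to 1.23), with 213 of 525 UMIs in the 37 cells with macrophage and dendritic markers, and 0.47 without those cells, which is under the fold. *Itga6* was lower in Pdgfra-positive cells of the Foxn11089/1089 library, at -1.09 (-1.70 to -0.45) from 31 UMIs in the control and 88 in that library.

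*Itgb4*, the hemidesmosome partner of alpha6, was measured in epithelium and in Ptprc-positive cells. It had 24.7, 19.8 and 21.6 CPM in Epcam-positive cells, and was lower in the library labelled Tbx1neo2/neo2, at -0.72 (-0.86 to -0.58) after centring. The thyroid-marker cells held only 5 of its 843 UMIs there, and the cells outside the 3 marker sets had 24.3, 23.5 and 23.9 CPM. The ratio did not pass the fold there (-0.46), nor with only the thyroid and parathyroid sets left out (-0.49). In Ptprc-positive cells *Itgb4* had 8.64, 17.7 and 2.86 CPM, which was higher in the library labelled Tbx1neo2/neo2 (0.68, 0.35 to 1.02) and lower in the Foxn11089/1089 library (-1.82, -2.48 to -1.20). Of these UMIs, 64 of 99, 252 of 323 and 4 of 28 lay in cells with at least 500 CPM of thymocyte markers, at 17.0, 36.4 and 3.77 CPM, and such cells made up 34.4%, 37.5% and 11.3% of the gate. In Cdh5-positive cells, *Itgb4* had 2, 93 and 4 UMIs, or 2.42, 26.4 and 0.746 CPM, at a ratio before centring of 10.9-fold in the library labelled Tbx1neo2/neo2 (centred log2 interval 1.11 to 6.07). It is named there after its values were seen, since it has under 100 UMIs over both libraries. No single cell held more than 9 of the 93 UMIs, and 70 of them remained, at 23.2 CPM, in cells under 500 CPM of smooth muscle, epithelial and mesenchymal markers.

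*Itga3*, the alpha subunit of the basement membrane receptor alpha3 beta1, was led by Epcam-positive cells, with 6.77, 12.4 and 9.71 CPM, at 2.80-, 3.63- and 13.02-fold the next gate. The 413 Epcam-positive cells of the Foxn11089/1089 library with parathyroid markers (10.1% of its gate against 1.36% in the control) had 34.3 CPM, and the thyroid-marker cells of the library labelled Tbx1neo2/neo2 had 20.5 CPM. Outside the marker sets it had 6.67, 11.5 and 5.98 CPM. Neither comparison of *Itga3* passed the fold (0.47 and 0.22).

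Among the collagen receptors, *Itga1* and *Itga2* were led by endothelium and *Itga11* by mesenchyme. *Itga1* had 16.9, 12.8 and 18.1 CPM and *Itga2* had 16.9, 12.8 and 16.8 CPM in Cdh5-positive cells. From 14 control UMIs each, their centred ratio in the library labelled Tbx1neo2/neo2 was -0.85, with an interval from -1.74 to 0.13 that spans 0. In Pdgfra-positive cells, *Itga1* had 7, 188 and 38 UMIs, or 1.04, 5.04 and 1.05 CPM, and a centred ratio of 1.91 (0.84 to 3.24) in the library labelled Tbx1neo2/neo2. Of those 188 UMIs, 59 lay in 129 cells with at least 2000 CPM of smooth muscle and pericyte markers (12.7 CPM) and 32 in 83 cells with cartilage markers (14.7 CPM). Such cells made up 9.63% and 6.199% of the gate in the library labelled Tbx1neo2/neo2, against 2.56% and 0.302% in the control. In the other mesenchymal cells *Itga1* had 1.06, 3.20 and 0.962 CPM, and the ratio was 1.21. *Itga11*, the fibroblast collagen receptor, had 1.48, 4.50 and 1.21 CPM in Pdgfra-positive cells and a ratio of 1.23 (0.32 to 2.32) in the library labelled Tbx1neo2/neo2, and 1.22 without the marker sets. *Itga10*, the chondrocyte collagen receptor, had 5, 93 and 10 UMIs there, or 0.740, 2.49 and 0.275 CPM. Its ratio of 1.38 (0.10 to 3.03) in the library labelled Tbx1neo2/neo2 is named after its values were seen, since it has under 100 UMIs over both libraries, and 1 cell held 15 of the 93 UMIs. In mesenchyme *Itga1*, *Itga11* and *Itga10* thus had their highest level in the library labelled Tbx1neo2/neo2, from 5 to 10 control UMIs each.

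Among the RGD receptors, *Itgb5*, whose product pairs with alphav to bind vitronectin, differed between cell types within a gate. In Pdgfra-positive cells, which led it, *Itgb5* had 38.5, 85.8 and 38.4 CPM and a centred ratio of 0.78 (0.60 to 0.97) in the library labelled Tbx1neo2/neo2. The smooth muscle and cartilage sets there had 69.8 and 66.5 CPM, and the other cells had 38.6, 89.8 and 38.3 CPM, so the difference was as large without them (0.85). In Epcam-positive cells it had 2.65, 7.75 and 18.2 CPM, with ratios of 1.15 (0.81 to 1.502) and 2.48 (2.17 to 2.80). In the Foxn11089/1089 library, 1606 of the 1822 UMIs lay in the 413 parathyroid-marker cells, at 122 CPM, and in the control 48 of 90 lay in 27 such cells, at 149 CPM. Outside the marker sets *Itgb5* had 1.25, 6.00 and 2.18 CPM, with ratios of 1.85 in the library labelled Tbx1neo2/neo2 and 0.58 in the Foxn11089/1089 library, the latter just under the fold, which is 0.58 on this scale too. With only the thyroid and parathyroid sets left out, the ratios were 1.75 and 0.76, both past the fold. In Ptprc-positive cells it had 1.83, 11.7 and 10.7 CPM, with ratios of 2.31 (1.66 to 3.03) and 2.32 (1.64 to 3.07). Of these UMIs, 196 of 213 and 98 of 105 lay in the cells with macrophage and dendritic markers, which made up 7.09%, 12.4% and 29.2% of the gate, and without those cells the ratios were 0.56 and 0.48, both under the fold. Without all cells that had 2 or more UMIs of those markers or 10% or more hemoglobin UMIs, the ratios were 1.27 and 0.17.

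**Figure D3:**
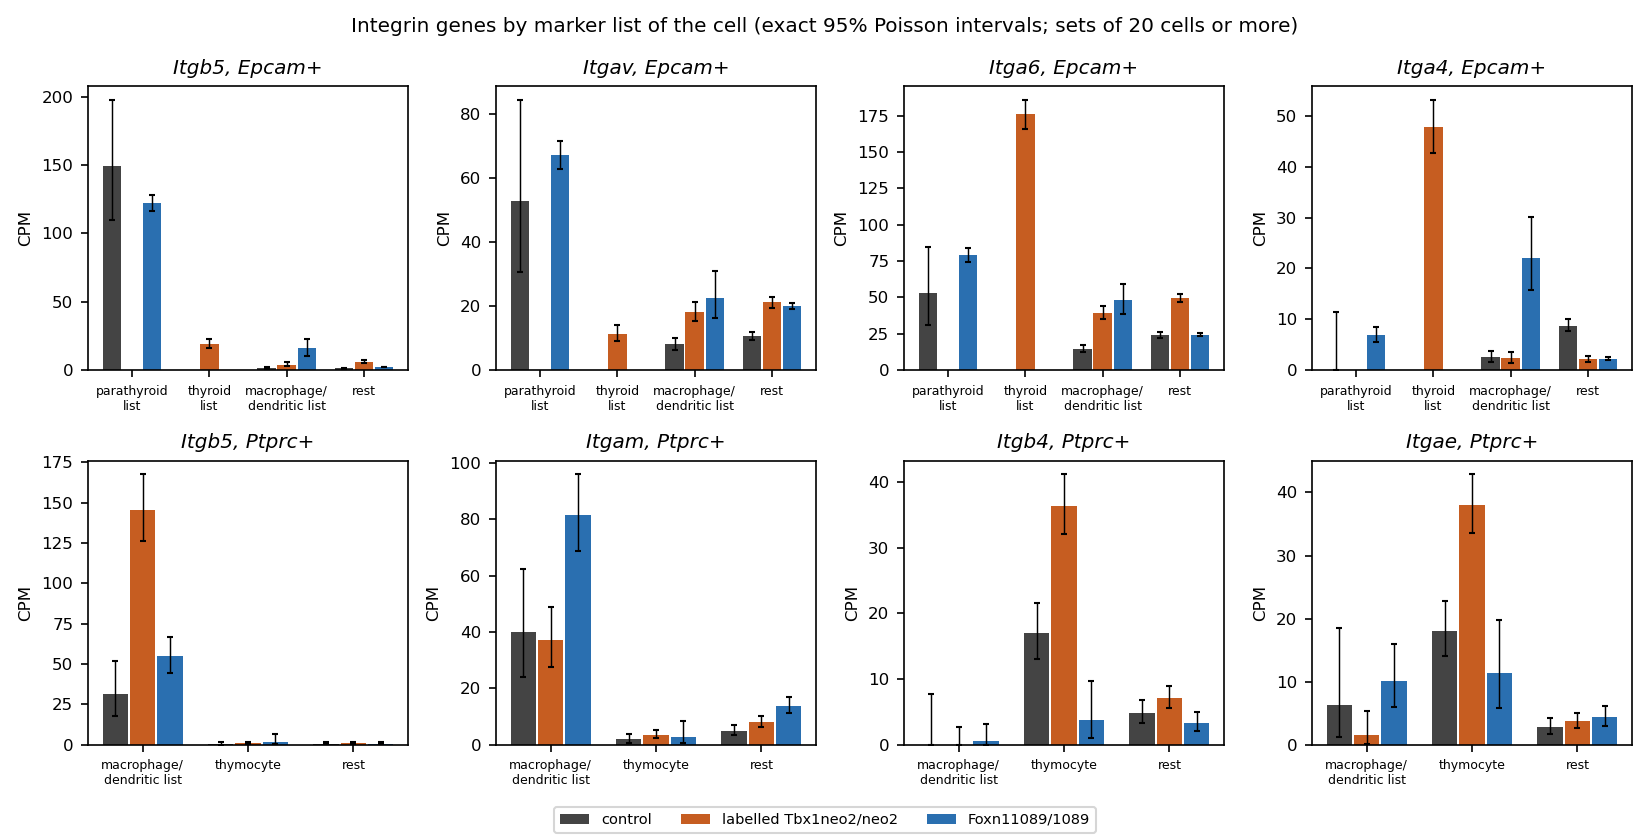
CPM (vertical axes, from 0) of 4 integrin genes in Epcam-positive cells (top) and 4 in Ptprc-positive cells (bottom), split by the marker list that a cell passed (sets of 20 cells or more; the macrophage/dendritic list in Epcam-positive cells is the antigen presentation set), with exact 95% Poisson intervals; gray is the control, orange the library labelled Tbx1neo2/neo2 and blue the Foxn11089/1089 library. *Itgb5* stands at 149 and 122 CPM in the parathyroid set and at 146 CPM in the macrophage and dendritic set of the library labelled Tbx1neo2/neo2, against 0.265 to 1.89 CPM in thymocyte-marker cells.

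*Itgav*, the shared alpha subunit of the vitronectin and TGF-beta-activating receptors, was present in all gates and led by none. It had 24.7, 38.7 and 35.1 CPM in Pdgfra-positive cells, 10.4, 19.1 and 26.3 in Epcam-positive, 8.47, 23.9 and 10.3 in Cdh5-positive and 7.15, 15.3 and 10.9 in Ptprc-positive cells. Only 2 of these comparisons with at least 100 UMIs passed the fold, Epcam-positive cells of the Foxn11089/1089 library (1.05, 0.88 to 1.21) and Ptprc-positive cells of the library labelled Tbx1neo2/neo2 (0.74, 0.38 to 1.12). Its endothelial ratio in the library labelled Tbx1neo2/neo2 was 1.05 with an interval from -0.06 to 2.41. The parathyroid-marker cells held 884 of the 2637 epithelial UMIs at 67.2 CPM, and the epithelial ratio was 0.69 without the 3 marker sets and 0.80 without the thyroid and parathyroid sets. *Itgb8*, a beta subunit that activates latent TGF-beta, was higher than in the control in mesenchyme of both libraries. It had 13, 382 and 182 UMIs, or 1.93, 10.2 and 5.01 CPM, in Pdgfra-positive cells, with ratios of 2.04 (1.25 to 2.96) and 1.21 (0.40 to 2.15), and 1.94 and 1.25 without the marker sets. In Epcam-positive cells it had 0.206, 1.34 and 0.967 CPM, against 0 to 0.217 CPM in red blood cells, which should lack it. *Itgb6*, the epithelial activator of latent TGF-beta, had 0.265, 1.60 and 0.967 CPM in Epcam-positive cells, and 55 of the 68 UMIs of the library labelled Tbx1neo2/neo2 were in thyroid-marker cells. In the Foxn11089/1089 library the ratios were 1.93 (0.84 to 3.29) for *Itgb8* and 1.57 (0.59 to 2.74) for *Itgb6*, from 7 and 9 control UMIs.

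*Itga5*, the fibronectin receptor subunit, had 32.7, 95.7 and 36.5 CPM in Cdh5-positive cells, 16.3, 24.2 and 14.2 in Pdgfra-positive, 2.88, 4.82 and 3.06 in Ptprc-positive and 1.94, 4.30 and 2.25 in Epcam-positive cells. It was higher in the library labelled Tbx1neo2/neo2 in endothelium (1.11, 0.54 to 1.73) and epithelium (0.75, 0.33 to 1.17). In mesenchyme its ratio of 0.20 did not pass the fold. *Itga8*, which binds nephronectin and is known from mesenchyme of developing organs, had 32.1, 24.7 and 31.4 CPM in Pdgfra-positive cells, 26.6-, 10.9- and 12.97-fold the next gate. Its ratio in the library labelled Tbx1neo2/neo2 was -0.75 (-0.97 to -0.53), and its level was 6.01 CPM in the smooth muscle set, 3.67 in the cartilage set and 29.2 in the other cells, against 32.4 in the other cells of the control. Without the marker sets the ratio was -0.52, under the fold, and -0.67 when such cells were left out by the number of markers detected. In Epcam-positive cells, *Itga8* had 0.501, 0.540 and 1.15 CPM, close to the 0.291, 0 and 0.832 CPM in red blood cells, so its ratio of 0.90 (0.16 to 1.73) in the Foxn11089/1089 library lies near the level of free RNA.

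*Itga2b* and *Itgb3* encode the platelet fibrinogen receptor, and alpha IIb also marks early hematopoietic progenitors. *Itga2b* had 14.7, 18.3 and 5.31 CPM in Ptprc-positive cells, and was lower in the Foxn11089/1089 library (-1.69, -2.17 to -1.24). The 5 platelet and megakaryocyte markers, of which 4, 5 and 4 were detected, summed to 28.7, 90.6 and 59.95 CPM in the gate, and their part in the result was not tested. *Itgb3* had 3.05, 4.65 and 2.04 CPM there. In Pdgfra-positive cells *Itga2b* had 4.59, 3.32 and 3.002 CPM and was lower in both libraries, at -0.84 (-1.42 to -0.22) and -0.78 (-1.37 to -0.16). *Itgb3* had 3.85, 2.01 and 1.76 CPM there and was lower in the library labelled Tbx1neo2/neo2, at -1.31 (-1.97 to -0.61). Platelet markers summed to 9.33, 8.23 and 8.90 CPM in that gate.

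**Figure D4:**
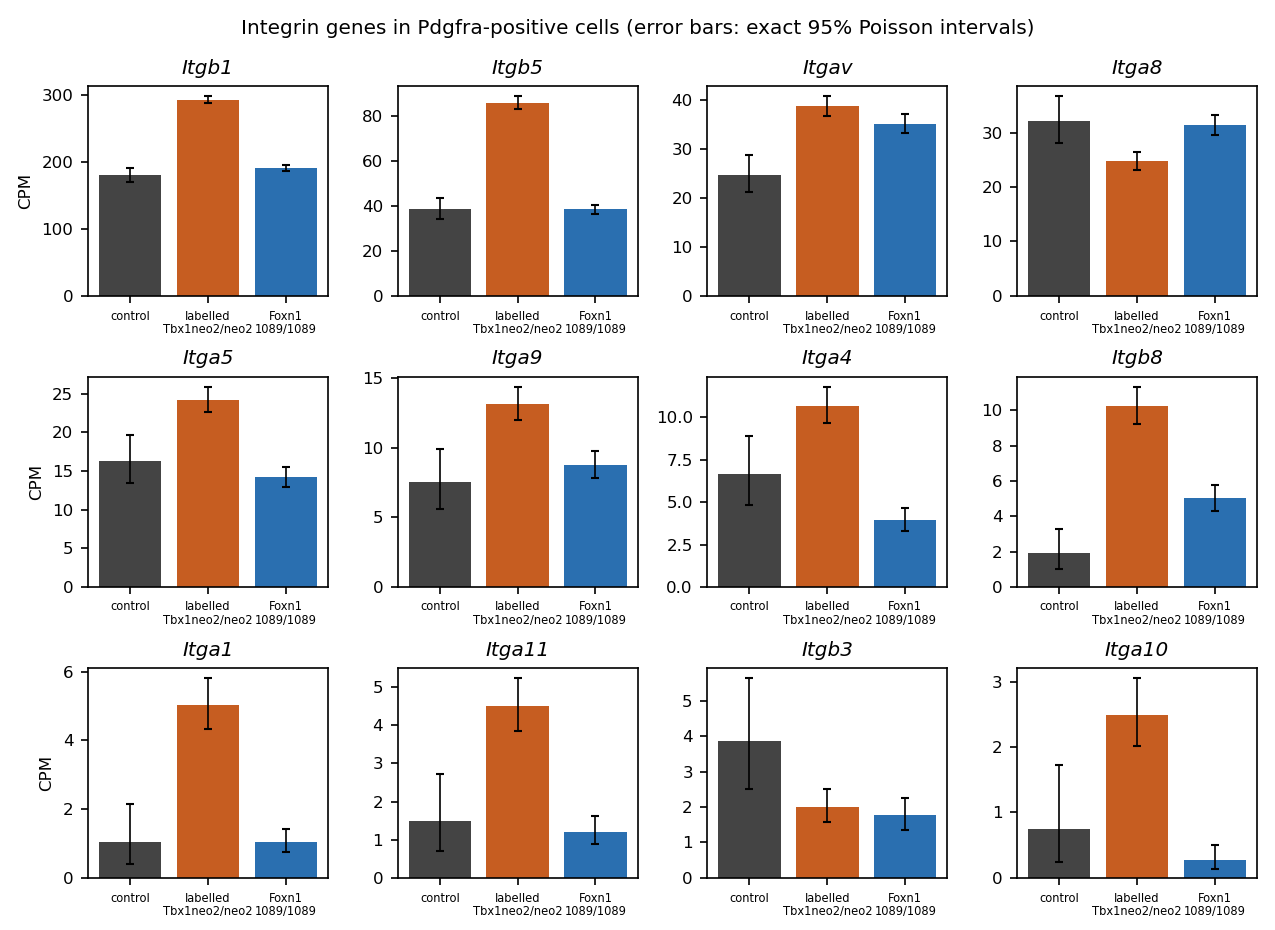
CPM (vertical axes, from 0) of 12 integrin genes in the Pdgfra-positive cells of the 3 libraries (horizontal axes), with exact 95% Poisson intervals as error bars. The bars are before centring. All genes but *Itga8* and *Itgb3* have their highest bar in the library labelled Tbx1neo2/neo2, and *Itga8* has its lowest bar there.

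*Itga4*, which with beta1 or beta7 binds VCAM1, fibronectin and MAdCAM-1 and is known for the homing of progenitors, had 278, 344 and 328 CPM in Ptprc-positive cells, 39.6-, 32.2- and 56.7-fold the next gate. Its centred ratios there were -0.05 (-0.11 to 0.01) and 0.01 (-0.06 to 0.08), the narrowest intervals among the Ptprc-led members. In Epcam-positive cells it had 7.01, 9.45 and 3.25 CPM. Of the 402 UMIs in the library labelled Tbx1neo2/neo2, 323 were in thyroid-marker cells, and outside the marker sets *Itga4* had 8.73, 2.19 and 2.23 CPM, so that both libraries lay below the control. The ratio in the Foxn11089/1089 library was -1.41 (-1.65 to -1.16), -2.19 without the 3 marker sets and -1.64 without the thyroid and parathyroid sets. In this gate the 5 thymocyte markers summed to 36.0, 15.3 and 4.79 CPM, and the 6 hematopoietic markers to 181, 121 and 82.7 CPM. Their part in the epithelial *Itga4* was not tested. In Pdgfra-positive cells it had 6.66, 10.7 and 3.94 CPM, with 265 of the 399 UMIs of the library labelled Tbx1neo2/neo2 in the smooth muscle set. The ratio of -0.93 (-1.42 to -0.41) in the Foxn11089/1089 library turned to 0.36 when cells were gated after thinning to 2000 UMIs.

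*Itga9*, a receptor subunit for tenascin-C and VCAM1, had 27.8, 47.4 and 24.1 CPM in Cdh5-positive cells, 7.55, 13.1 and 8.76 in Pdgfra-positive, 4.45, 10.5 and 3.57 in Ptprc-positive and 3.21, 6.70 and 7.72 in Epcam-positive cells. It was higher in epithelium of both libraries (0.66, 0.34 to 0.99, and 0.97, 0.68 to 1.27) and in Ptprc-positive cells of the library labelled Tbx1neo2/neo2 (0.88, 0.43 to 1.36). The epithelial ratios were 0.77 and 0.97 without the 3 marker sets, and 0.87 and 1.20 without the thyroid and parathyroid sets. In mesenchyme, 141 of the 490 UMIs of the library labelled Tbx1neo2/neo2 lay in the smooth muscle set, at 30.3 CPM.

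Among the leukocyte integrins, *Itgb7*, which pairs with alpha4 or alphaE, had 62.3, 96.3 and 86.1 CPM in Ptprc-positive cells and 15.6, 15.5 and 7.80 CPM in Epcam-positive cells. It was lower in the epithelium of the Foxn11089/1089 library, at -1.30 (-1.46 to -1.14). The Epcam-positive cells of the antigen presentation set had 22.4, 31.4 and 19.8 CPM and the cells outside the 3 sets 13.4, 14.5 and 8.26 CPM. The ratio in the Foxn11089/1089 library was -0.92 outside the 3 sets and -1.10 without the thyroid and parathyroid sets. The part of the thymocyte and hematopoietic markers of this gate in the epithelial *Itgb7* was not tested. *Itgal*, the alpha subunit of the ICAM receptor LFA-1, had 22.8, 46.4 and 30.5 CPM in Ptprc-positive cells and was higher in the library labelled Tbx1neo2/neo2 (0.67, 0.47 to 0.88).

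*Itgb2*, the shared beta subunit of the leukocyte integrins, differed in direction between gates. In Ptprc-positive cells it had 14.0, 20.5 and 32.7 CPM and a ratio of 0.99 (0.71 to 1.27) in the Foxn11089/1089 library, and 0.99 without the macrophage and dendritic set. In Epcam-positive cells it had 4.21, 6.60 and 0.877 CPM and a ratio of -2.56 (-2.96 to -2.17) in the Foxn11089/1089 library. The 6 hematopoietic markers, all detected, summed to 181, 121 and 82.7 CPM in Epcam-positive cells and to 2855, 2910 and 3394 CPM in Ptprc-positive cells, and their part in the epithelial *Itgb2* was not tested. *Itgb2* in red blood cells was at most 0.145 CPM.

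*Itgam*, the alpha subunit of the phagocyte receptor Mac-1, had 5.41, 8.48 and 25.02 CPM in Ptprc-positive cells and was higher in the Foxn11089/1089 library (1.98, 1.58 to 2.41). The macrophage and dendritic set held 19 of 62, 50 of 155 and 146 of 245 of its UMIs, and without that set the ratio was 1.46. *Itgam* also has a second entry (ENSMUSG00000108596) that overlaps it on the same strand, and reads that fit both may have been lost from both. *Itgax*, the CD11c subunit of dendritic cells, had 4.97, 4.32 and 8.99 CPM and a ratio of 0.63 (0.13 to 1.13) in the Foxn11089/1089 library, which was 0.29 without the macrophage and dendritic set. *Itgae*, which with beta7 binds E-cadherin, had 7.94, 16.5 and 6.13 CPM, higher in the library labelled Tbx1neo2/neo2 (0.70, 0.36 to 1.06) and lower in the Foxn11089/1089 library (-0.60, -1.10 to -0.11). Most of its UMIs in the library labelled Tbx1neo2/neo2, 263 of 302, lay in thymocyte-marker cells, where its level was 18.0, 38.0 and 11.3 CPM. *Itgad*, the alphaD subunit, had 8, 28 and 12 UMIs and *Itgb2l*, a gene related to *Itgb2*, had 5, 11 and 31 UMIs in this gate.

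*Itgb1*, the common beta subunit of the laminin, collagen and fibronectin receptors, was present in every gate. It had 313, 683 and 334 CPM in Cdh5-positive cells, 181, 293 and 191 in Pdgfra-positive, 74.5, 134 and 102 in Epcam-positive and 53.2, 82.7 and 80.9 in Ptprc-positive cells. The order of the gates, from endothelium through mesenchyme and epithelium to Ptprc-positive cells, was the same in the 3 libraries. The comparison past the fold was that of endothelium in the library labelled Tbx1neo2/neo2, at 0.68 (0.49 to 0.87). It was 0.67 without cells that carried smooth muscle, epithelial or mesenchymal markers.

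Of the members that are not receptor subunits, *Itgb3bp*, a centromere protein also known as CENP-R, was lower than the control in all 4 gates of the library labelled Tbx1neo2/neo2. It had 78.3, 59.2 and 63.8 CPM in Epcam-positive, 46.2, 35.0 and 51.8 in Pdgfra-positive, 48.4, 28.4 and 48.7 in Cdh5-positive and 55.1, 46.0 and 36.1 in Ptprc-positive cells. The centred ratios in the library labelled Tbx1neo2/neo2 were -0.80, -0.78, -1.21 and -0.62, and in the Foxn11089/1089 library those in Epcam- and Ptprc-positive cells, -0.59 and -0.84, also passed the fold. Before centring, the fold was passed only in Cdh5-positive cells of the library labelled Tbx1neo2/neo2 and in Ptprc-positive cells of the Foxn11089/1089 library. Without the marker sets, the ratios in Epcam-positive cells of the Foxn11089/1089 library and in Ptprc-positive cells of the library labelled Tbx1neo2/neo2 were -0.52 and -0.57, under the fold. *Itgb1bp1*, which binds the tail of beta1, had 27.0 to 45.9 CPM over all gates and libraries and passed the fold in none of the 8 comparisons. *Itgbl1*, a secreted integrin-like protein, was counted in Epcam-positive cells with 33, 21 and 1 UMIs and in the other gates with 1 UMI in all. Its ratio in the Foxn11089/1089 library, -6.90 (-12.25 to -4.33), rests on that 1 UMI and is named after its values were seen. *Itgb1bp2*, a muscle protein, had 13, 22 and 51 UMIs in Epcam-positive cells.

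Lists of 36 adaptors and 24 ligands set the receptors beside their partners, and their counts are read against the shares of all genes. The lists were chosen with earlier results of these data known. They hold *Actn1*, *Fbln5* and *Cyr61*, which the study reported from the same data as elevated in Tbx1neo2/neo2 mesenchyme. The counts and the ratios of these genes are therefore no separate support for that report. The study's pathway analysis of its mesenchymal clusters also listed integrin and integrin-linked kinase signaling among the pathways affected in Tbx1neo2/neo2. That analysis was not repeated here, and the counts below do not test it. Of adaptors in Pdgfra-, Epcam- and Cdh5-positive cells of the library labelled Tbx1neo2/neo2, 5 of 32, 5 of 35 and 6 of 28 were higher and 6, 6 and 2 lower. Of all genes, 18.8%, 17.7% and 25.5% were higher and 20.4%, 21.8% and 24% lower in these gates. *Dab2*, an endocytic adaptor of beta subunits, was higher in each, with 32.4, 124 and 59.99 CPM in Pdgfra-positive cells, where *Actn1*, an actin cross-linker at adhesions, had 47.4, 147 and 57.5 CPM. *Tns3*, a tensin, had 35.5, 107 and 71.6 CPM there. Smooth muscle and pericyte markers summed to 493, 1190 and 499 CPM in this gate, and without the marker sets the centred ratios in the library labelled Tbx1neo2/neo2 were 1.62 for *Dab2*, 0.77 for *Actn1* and 1.16 for *Tns3*. *Cib1*, which binds the alpha IIb tail, was lower in all 3 gates of both libraries, with 56.3, 28.1 and 40.2 CPM in Pdgfra-positive cells. *Crkl*, an adaptor that binds paxillin and p130Cas, had 6.66, 2.44 and 3.498 CPM there. In the Foxn11089/1089 library, 3 of 33, 6 of 36 and 2 of 27 adaptors were higher and 5, 9 and 2 lower in these gates. Of all genes, 12.5%, 22.6% and 20% were higher and 15.3%, 22.7% and 19.6% lower. *Dab2* was higher in these gates of the Foxn11089/1089 library too, with centred ratios of 0.72, 0.91 and 1.03, the last from 9 control UMIs. *Tns3* was higher in its mesenchyme, at 0.84. In Ptprc-positive cells of the library labelled Tbx1neo2/neo2, 5 of 29 adaptors were higher and 2 lower (15.3% and 18.8% of all genes). In those of the Foxn11089/1089 library, 4 of 28 were higher and 2 lower (16.6% and 18.1%). *Dab2* had the largest ratio in the Ptprc-positive cells of each, at 3.38 and 2.90.

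Of ligands in Pdgfra-, Epcam- and Cdh5-positive cells of the library labelled Tbx1neo2/neo2, 7 of 19, 7 of 23 and 11 of 18 were higher and 2, 5 and 3 lower. Of all genes, 18.8%, 17.7% and 25.5% were higher and 20.4%, 21.8% and 24% lower. The largest ratios in mesenchyme were those of *Fbln5*, an elastic fiber protein with an RGD motif, at 20.4, 238 and 24.3 CPM, *Cyr61*, a matricellular ligand, at 30.2, 123 and 33.3 CPM, and *Tnc*, tenascin-C, at 6.07, 21.6 and 4.57 CPM. Their centred ratios were 3.17, 1.65 and 1.46, and 2.33, 1.33 and 1.53 without the smooth muscle and other marker sets. In endothelium, *Fbln5* had 0, 6956 and 367 UMIs, and *Fn1*, fibronectin, had 52.02, 454 and 70.3 CPM. In the same gate smooth muscle and pericyte markers summed to 14.5, 77.3 and 93.8 CPM and mesenchymal markers to 31.5, 148 and 364 CPM. In the 47, 79 and 95 Cdh5-positive cells outside the smooth muscle, epithelial and mesenchymal sets, *Fbln5* had 0, 5414 and 147 UMIs and *Fn1* had 48.5, 423 and 59.4 CPM. In the Foxn11089/1089 library, 1 of 19, 10 of 23 and 7 of 14 ligands were higher and 4, 7 and 4 lower. Of all genes, 12.5%, 22.6% and 20% were higher and 15.3%, 22.7% and 19.6% lower. In Ptprc-positive cells of the library labelled Tbx1neo2/neo2, 9 of 15 ligands were higher and 2 lower (15.3% and 18.8% of all genes). The largest ratios there, of *Spp1*, *Thbs1* and *Fbln5*, rest on 7, 11 and 17 control UMIs. In Ptprc-positive cells of the Foxn11089/1089 library, 11 of 15 were higher and 3 lower (16.6% and 18.1%). In the epithelium of the Foxn11089/1089 library, *Spp1*, osteopontin, had 15.2 CPM in the control and 393 in that library, *Npnt*, the ligand of alpha8 beta1, had 41.1 and 385 CPM, and *Vcam1*, the ligand of alpha4 beta1, had 17.1 and 3.57 CPM. Parathyroid markers had 948 CPM in that gate of the control and 8013 in the Foxn11089/1089 library, and red blood cell markers 1784 and 22474 CPM. Without the thyroid and parathyroid sets, *Spp1* had 0.238 and 7.19 CPM, *Npnt* had 19.7 and 32.03 CPM, under the fold with a centred ratio of 0.49, and *Vcam1* had 17.3 and 3.64 CPM. Without the antigen presentation set as well, *Vcam1* had 3.76 and 3.12 CPM, and its ratio of -0.49 was under the fold. *Tnc* had the lowest ratio of the ligands with at least 100 UMIs in this epithelium, -3.40, with 22.8 and 2.64 CPM. Its ratio was -3.17 without the thyroid and parathyroid sets and -1.72 without the antigen presentation set as well, still past the fold. *Spp1* also had 0.296 CPM in Pdgfra-positive cells of the control and 5.18 in those of the Foxn11089/1089 library. Parathyroid markers had 6.99 and 119 CPM in the red blood cells of these libraries. The part of free RNA in the epithelial *Spp1* was not tested. *Madcam1*, the ligand of alpha4 beta7, had 62.9, 37.2 and 38.0 CPM in Cdh5-positive cells.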

How the data were processed

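UMIs were counted in 3 droplet libraries (10x Genomics), 1 per genotype. Per the submitters' processing notes and the study's methods, the authors aligned reads to mm10 with Cell Ranger 3.0.0 and used Seurat for clustering, which is not used here. The authors deposited raw counts per gene and barcode, without normalization. Members and lists were chosen with earlier results of these data known.

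Kept barcodes had 200 genes or more and less than 20% of UMIs from mitochondrial genes. Likely doublets (Scrublet in scanpy 1.11.5, highest scores at 0.8% per 1000 barcodes) were marked and stayed in. CPM are sums over cells of a gate per 1000000 UMIs, so deep cells weigh more. Median depth of the gates ran from 9488 to 61692 UMIs and was lowest in the control in every gate. It was 16582, 46025 and 20964.5 in Epcam-positive and 9488, 25709 and 14501 in Pdgfra-positive cells. In Cdh5-positive cells it was 17013, 22495 and 43723.5, and in Ptprc-positive cells 20301, 61692 and 28876. The minimum of 2 UMIs for a gate was the same at every depth. Levels have exact 95% Poisson intervals and ratios exact conditional binomial ones; centring treats the all-gene median as fixed. UMIs of a gene are 3′ tags, so levels were compared across cells and not ranked across genes. Red blood cells (at least 25% hemoglobin UMIs) gave the level of free RNA. Members past 1.5-fold with at least 100 UMIs over the 2 libraries were named, and of each pathway list up to 3 ratios per direction were considered. Sets of cells within a gate used at least 500 CPM of a marker list (2000 for smooth muscle in Pdgfra-positive cells), cutoffs chosen after seeing the data. The ratio script was tested on simulated data. Gene positions are from GENCODE on GRCm38 and matched all 32 members. Python 3.11.15, numpy 2.4.6, scipy 1.17.1, pandas 2.3.3 and matplotlib 3.10.9 were used.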

Additional observations from a re-analysis of the deposited data

Results flagged for a closer look

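*Itgb2* differed from the control in opposite directions in 2 gates of the Foxn11089/1089 library, with a centred log2 ratio of -2.56 in Epcam-positive and 0.99 in Ptprc-positive cells. *Itgb4* did so in the library labelled Tbx1neo2/neo2, with -0.72 in Epcam-positive and 0.68 in Ptprc-positive cells. Before centring, the epithelial ratio of *Itgb4* did not pass the fold. With 1 library per genotype, the difference between the gates was not tested. Without the Epcam-positive cells that carried thyroid or parathyroid markers, the epithelial ratios were -0.49 for *Itgb4*, under the fold, and -2.70 for *Itgb2*.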

How the results depend on the processing

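Of the 47 named log2 ratios, 27 passed 1.5-fold in the same direction under every alternative run on them and 20 did not under at least 1. Direction turned in 2: *Itga4* in Pdgfra-positive cells of the Foxn11089/1089 library (0.36 when gated after thinning to 2000 UMIs) and *Itgax* in Ptprc-positive cells of the Foxn11089/1089 library (-0.21 without cells with 2 or more UMIs of macrophage and dendritic markers or 10% or more hemoglobin UMIs). Of the counts, 134 of 154 alternative values lay within 1.5 times of the reported one. Members led by Epcam-positive cells numbered 1 with a gate of 1 UMI of exactly 1 gene, without likely doublets, without other cell types by UMIs, with a minimum of 100 UMIs and at 4-fold, and 0 with gates set after thinning. Those led by Cdh5-positive cells numbered 3 with gates set after thinning and 1 at 4-fold. Members past the fold in Cdh5-positive cells of the Foxn11089/1089 library numbered 3 with gates after thinning, 2 with equal weight per cell, 3 with a minimum of 10 UMIs and 1 without centring. With a minimum of 100 UMIs they numbered 6 in Epcam-positive and 3 in Cdh5-positive cells of the library labelled Tbx1neo2/neo2, where fewer genes were tested. With a minimum of 10 they numbered 10 in Pdgfra-positive cells of the Foxn11089/1089 library. Without centring they numbered 14 in Ptprc-positive cells of the library labelled Tbx1neo2/neo2. At 2-fold they numbered 7, 4 and 1 in the Pdgfra-, Cdh5- and Ptprc-positive cells of the library labelled Tbx1neo2/neo2 and 5 in the Ptprc-positive cells of the Foxn11089/1089 library. The share of all genes was not computed under these alternatives, so these counts cannot be set against it. Where no construction shows the cause, the cause was not tested. Leaving out the library labelled Tbx1neo2/neo2, chosen after seeing the data, added *Itgb4* to the Epcam-led members, which then numbered 3. Leaving out cells with 2 or more UMIs of thyroid or parathyroid markers, or 10% or more hemoglobin UMIs, left 2069 of 4082 Epcam-positive cells of the Foxn11089/1089 library. Leaving out only the thyroid and parathyroid sets, also chosen after seeing the data, gave 12 and 13 members past the fold in Epcam-positive cells, as reported. No paired analysis was possible because each genotype has 1 library, and no replicate could be left out. Endothelial ratios rest on 51 control cells, 9 of them likely doublets.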
